A study of Drosophila melanogaster with 12 samples.

Results

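Mitochondrial ribosomal proteins were taken as the 72 genes, of 17807 in the count table, whose FlyBase symbol begins with mRpL (47 genes, large subunit) or mRpS (25 genes, small subunit) followed by a number. Their transcripts were measured by RNA-seq in salivary glands of Drosophila melanogaster prepupae at 12 h and 14 h after pupariation, in 3 libraries for each of 4 groups. Control animals were w1118 fkh>GFP; +/+; +/E93Δ1, so they carried 1 mutant copy of E93, a transcription factor gene induced by the steroid hormone ecdysone. Mutant animals were w1118 fkh>GFP; +/+; E93Δ12/E93Δ13, and both genotypes carried the salivary gland driver fkh with GFP. The design asked how loss of E93 changes ecdysone-regulated expression late in prepupal life.

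The mitochondrial ribosome translates the few proteins that mitochondrial DNA encodes, nearly all of them subunits of the respiratory chain. Its RNA comes from mitochondrial DNA, whereas its proteins are encoded in the nucleus, translated in the cytoplasm and imported. Many of them have counterparts in the bacterial ribosome and others exist only in mitochondria. The larval salivary gland is a secretory tissue of polyploid cells that dies after a late prepupal pulse of ecdysone.

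Total counts were 6977403 to 9497317 per library, so 3 counts, the detection floor used here, equal 0.316 to 0.43 CPM (the count scaled to a common library total). TMM scaling factors were 0.753 to 0.942 at 12 h and 1.13 to 1.26 at 14 h, so scaled and unscaled values differ most between the times. Levels below are TMM-scaled CPM unless they are called unscaled. Reads over Eip93F, the E93 gene, were at 1174 to 2077 CPM in 12 h controls, 3866 to 4309 in 12 h mutants, 775 to 893 in 14 h controls and 1953 to 2018 in 14 h mutants. These whole-gene counts do not check the alleles, whose lesions the labels do not give. All 14 salivary gland markers had reads. The first 12 h control library lay toward the 14 h libraries, and summed gut marker levels stood out in the first 12 h mutant (449 CPM, against 195 and 221) and the second 14 h mutant (179, against 75.5 and 69.8). The labels do not say whether replicates came from separate animals, so p-values measure the spread between these libraries, which may be technical. Effects are log2 differences with their standard error (SE) from edgeR's quasi-likelihood F test, a call is a Benjamini-Hochberg adjusted p under 0.05 over 7584 tested genes, and ± marks the SD over 3 libraries.

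The 72 genes were spread over the genome. On the BDGP6 annotation 12 lay on 2L, 12 on 2R, 16 on 3L, 21 on 3R and 11 on X. They were short, with a median of 783 exonic bases and a range of 327 to 2078. A head-to-head arrangement was frequent: 51 of 72, or 70.8%, had the start of a gene on the opposite strand within 500 bases, against 24.9% of 13883 protein-coding genes, given as a description. Exons of 43 genes touched exons of another gene. For 8 of them the shared part was over 20% of exon length (mRpL13, mRpL17, mRpL48, mRpL53, mRpS14, mRpS21, mRpS24 and mRpS9), and the strand setting of the counting is not given in the sources used here, so their counts may include reads of the neighbour. By name, 41 members carry numbers shared with bacterial ribosomal protein families and 31 carry higher numbers. The split by subunit follows the symbol, although the mammalian counterparts of mRpS30 and mRpS18A sit in the large subunit.

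Transcripts of the mitochondrial ribosome were few beside those of the cytoplasmic ribosome and the respiratory chain, and near the middle of all genes. The median member had 0.949 CPM per kilobase of exon over all libraries, with quartiles of 0.681 and 1.61, against a median of 0.559 over 13883 protein-coding genes, and it lay above 55.7% of them. On the same scale of levels per length, cytoplasmic ribosomal protein genes had a median of 302, nuclear genes for subunits of oxidative phosphorylation 8.83 and the proteins encoded by mitochondrial DNA 84.8. The other nuclear genes of the same translation system were lower still, at a median of 0.426 for mitochondrial translation factors and 0.329 for mitochondrial aminoacyl-tRNA synthetases. Mean levels of 44 members were under 1 CPM, and 2 members reached 5 CPM.

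A few genes stood above the rest. Averaged over all libraries, the highest levels per kilobase were those of mRpL30 (17.6 CPM per kilobase), mRpL28 (7.57), mRpL42 (5.0), mRpS17 (4.33) and mRpL33 (3.53). This order differs by group: in CPM the mean of mRpL28 was above that of mRpL30 at 12 h (7.72 and 6.19 in controls, 8.47 and 3.03 in mutants). The mean of mRpS17 was 6.24 CPM in 14 h mutants and 0.834 in 14 h controls. The lowest were mRpL53, with no read in any library, mRpL21 (0.352), mRpL18 (0.435), mRpL37 (0.437) and mRpL15 (0.465). For mRpL53 no level can be read from its 0 counts, because its whole exon length of 829 bases is shared on the same strand with CG33155, which had 6 counts in all.

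**Figure D1:**
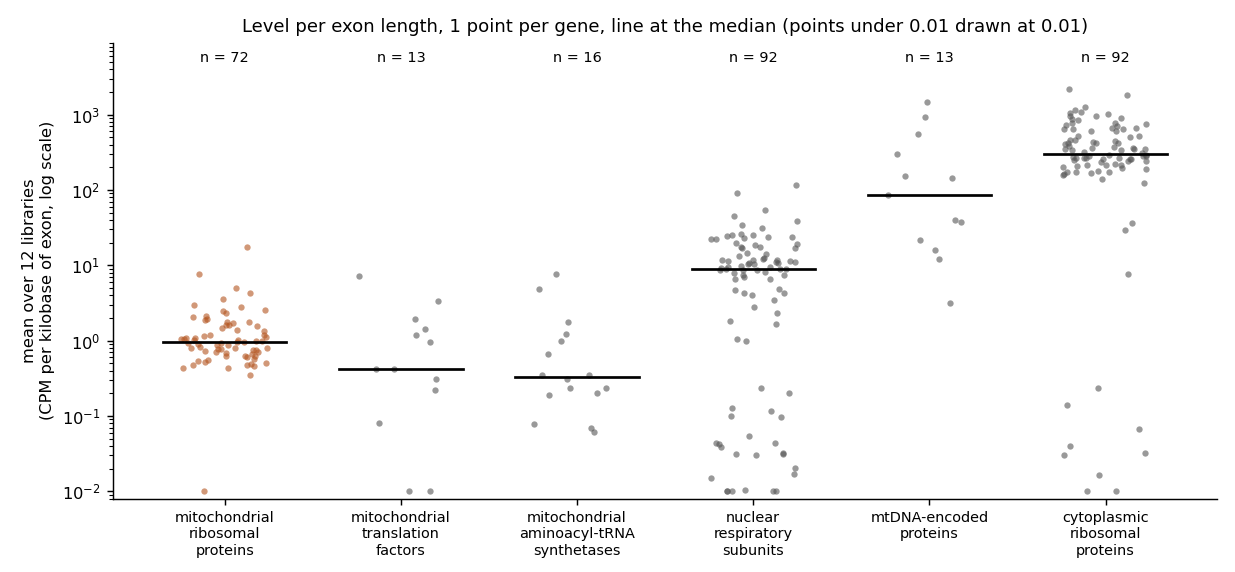
Levels of the members and of related gene lists in CPM per kilobase of exon, averaged over all 12 libraries, on a log axis. Each point is a gene; the median member, at 0.949, lies far under the median cytoplasmic ribosomal protein gene, at 302.

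Depth limited what could be tested. The members together received 300 to 670 counts per library at 12 h and 984 to 1301 at 14 h. In a library, 7 to 19 members had at least 10 counts at 12 h and 30 to 44 at 14 h. The low-count filter kept 35 members, 23 of the large and 12 of the small subunit, and left 37 untested. Of the 35, 23 passed only through their 14 h level, 11 passed at both times and 1 passed only through 12 h, so the tested members lean toward genes that are high at 14 h. For that reason sums over all 72 genes, and effects from a fit without the filter over the 71 members with a read, are given beside the calls.

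The summed level of all 72 genes was higher at 14 h than at 12 h in both genotypes. After TMM scaling the sums were 85.7, 67.3 and 51.9 CPM in 12 h controls and 105, 111 and 109 in 14 h controls. They were 64.2, 69.4 and 89.7 CPM in 12 h mutants and 116, 110 and 122 in 14 h mutants. Every 14 h library lay above every 12 h library, and the genotypes overlapped at both times. The 14 h mean was 1.59 times the 12 h mean in controls and 1.55 times in mutants, or 2.24 and 2.20 times without TMM scaling. For the 37 members left out by the filter the ratios were 1.40 and 1.51, but their summed levels overlapped between the times, at 8.82 to 20.7 against 18.7 to 21.7 CPM in controls and 13.3 to 25.6 against 23.8 to 31.0 in mutants. Leaving out mRpL30, mRpS17 and mRpS31, 3 genes described further on, the ratios were 1.39 and 1.49. Fewer cells of a type and less RNA per cell cannot be told apart in such bulk samples.

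Cytoplasmic ribosomal protein transcripts went the other way. Summed cytoplasmic ribosomal protein levels at 14 h were 0.53 times those at 12 h in controls and 0.51 times in mutants (0.77 and 0.73 unscaled). Summed nuclear oxidative phosphorylation levels were 0.83 and 0.85 times those at 12 h, but 1.2 and 1.21 times unscaled, so their direction depends on the scaling. Summed mitochondrial translation factor levels were 18.6 to 27.5 CPM in 12 h controls and 48.2 to 54.9 in 14 h controls, and 21.4 to 38.1 and 32.9 to 38.0 in mutants, so that the times were apart in controls and overlapped in mutants. Most of the rise of this sum in controls was 1 gene, mEFG1, with means of 9.77 CPM at 12 h and 33.6 at 14 h. In mutants its means were 14.7 and 14.3. A ratio within a library needs no scaling. For every 1000 counts of cytoplasmic ribosomal proteins there were 2.89, 1.46 and 1.19 member counts in 12 h controls and 5.18, 5.66 and 4.66 in 14 h controls. In mutants there were 1.64, 1.39 and 1.86 at 12 h and 5.45, 4.78 and 4.59 at 14 h. The times did not overlap in either genotype. Per 1000 oxidative phosphorylation counts the members had 53.6 to 104 counts at 12 h and 105 to 147 at 14 h, so the times were apart here too. The highest 12 h value was that of the first 12 h control, the library that lay toward 14 h; the other 12 h libraries reached 71.1.

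**Figure D2:**
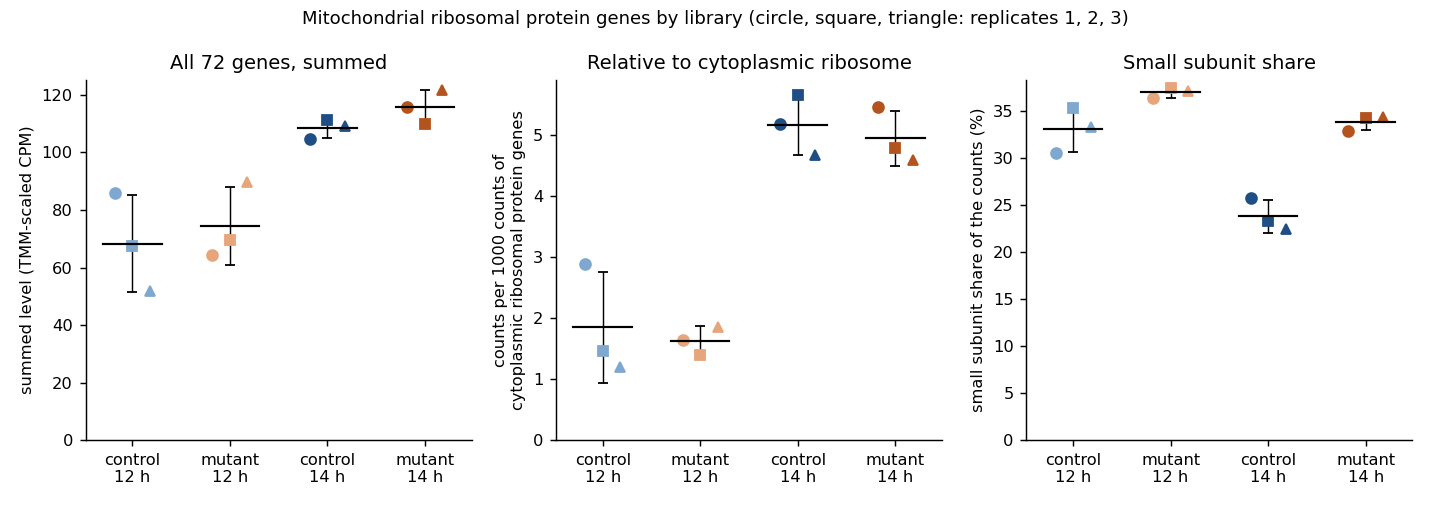
Left to right: summed TMM-scaled level of the 72 members in CPM, member counts per 1000 counts of cytoplasmic ribosomal proteins, and the percentage of member counts from the small subunit; points are libraries, and the line and bar give the mean and SD of 3. In summed level all 14 h libraries, at 105 to 122, lie above all 12 h libraries, at 51.9 to 89.7.

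Of single members, the share called higher with time was close to that of genes at large. The share called lower, 1 member in each genotype, was smaller. From 12 h to 14 h, 7 tested members were called higher in controls and 1 lower, while 20.8% of all tested genes were called higher and 22.4% lower. In mutants 8 members were called higher and 1 lower, beside 22.6% and 22.4% of all tested genes. Called either way were 22.9% of tested members in controls and 25.7% in mutants, beside 43.2% and 45.1% of all tested genes. The 20% and 22.9% of tested members called higher are thus close to the background. Low-level genes (mean under 5 CPM, a limit chosen after seeing the data) were called higher in 16.9% and 17.5% and lower in 8.08% and 8.76%. Called either way were 25% and 26.3% of these low-level genes, close to the shares of the members. The times did not overlap for 10 members with higher and 4 with lower 14 h levels in controls, and for 15 and 2 in mutants. Over all tested genes 30.4% were apart with higher and 26% with lower 14 h levels in controls, and 29.5% and 25.4% in mutants. In the fit without the filter the median effect over 71 members was 0.54 in controls and 0.58 in mutants, beside 0.10 and 0.25 over all genes. With library size in place of TMM the medians rose for all tested genes from 0.12 to 0.64 in controls and from 0.14 to 0.65 in mutants and for the tested members in controls from 0.54 to 1.04.

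The genes called higher in both genotypes were mRpL22, mRpL30, mRpL35, mRpS7 and mRpS25. Of these, mRpL30 passed the low-count filter at both times. mRpL22, mRpL35, mRpS7 and mRpS25 passed only through their 14 h level, so the filter itself favoured a rise in them. By the level set for full description, at least 5 CPM in the higher group, mRpL30 was the only one with a rise in controls. The others are lower and were chosen for description after their values were seen.

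mRpS7, whose bacterial counterpart starts assembly of the head of the small subunit, lies at 2L:10386662-10387652 on the plus strand. It had 9, 6 and 7 counts in 12 h controls, 3, 7 and 8 in 12 h mutants, 31, 42 and 35 in 14 h controls and 38, 37 and 75 in 14 h mutants. The times did not overlap, and the third 14 h mutant was highest. The log2 rise of mRpS7 was 1.80 (SE 0.38, edgeR adjusted p 0.00239) in controls and 2.41 (SE 0.39, adjusted p 0.00037) in mutants.

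mRpL35 had 7, 2 and 3 counts in 12 h controls, 4, 10 and 4 in 12 h mutants, 25, 21 and 33 in 14 h controls and 20, 30 and 53 in 14 h mutants. Every 14 h library was above every 12 h library. The log2 rise was 2.23 in controls (edgeR adjusted p 0.00408) and 1.89 in mutants (adjusted p 0.00685). The mutant call of mRpL35 ended without both libraries that stood out in gut markers (1.72, edgeR adjusted p 0.0564; 0.0564 was the highest over its alternatives). The mitochondria-specific mRpS25 was nearly absent at 12 h, with 6, 1 and 2 counts in controls and 0, 4 and 3 in mutants. At 14 h mRpS25 had 26, 17 and 14 counts in controls and 20, 21 and 21 in mutants. The log2 rise of mRpS25 was 2.15 in controls (edgeR adjusted p 0.0131) and 2.5 in mutants (adjusted p 0.00668). The control call of mRpS25 ended without the second 12 h control (edgeR adjusted p 0.0676) or the first 14 h control (0.0644).

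mRpL22, whose bacterial counterpart lines the peptide exit tunnel, rose by 1.81 in controls (edgeR adjusted p 0.00495) and 1.11 in mutants (adjusted p 0.0313). The mutant call of mRpL22 ended when the first or second 12 h mutant or any 14 h mutant was left out (edgeR adjusted p up to 0.113). In controls mRpL24 and mRpS34 were also called, with log2 rises of 1.55 and 1.62 (edgeR adjusted p 0.012 and 0.0168); mRpS34 lost its call without the first 12 h control, the third 12 h control or the third 14 h control (adjusted p 0.0644 to 0.0791). In mutants mRpL47, the homologue of a bacterial protein at the tunnel exit, and mRpL17 were called, with rises of 1.45 and 1.13 (edgeR adjusted p 0.0321 and 0.0336). Both are weak: mRpL47 lost its call in 4 of 12 fits that left out 1 library, which were the first mutants and the third mutants of each time (adjusted p up to 0.119). mRpL17 lost it in 8 of 12 (adjusted p up to 0.141), namely without the second 12 h control, any 12 h mutant, the first 14 h control, the third 14 h control, or the last 2 of the 14 h mutants. For these genotype-specific calls, mRpL24, mRpS34, mRpL47 and mRpL17, the difference of the rises between genotypes had adjusted p of 0.543 to 0.86 in edgeR and so was not called. All of these genes, like mRpL22, passed the filter only through their 14 h level.

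**Figure D3:**
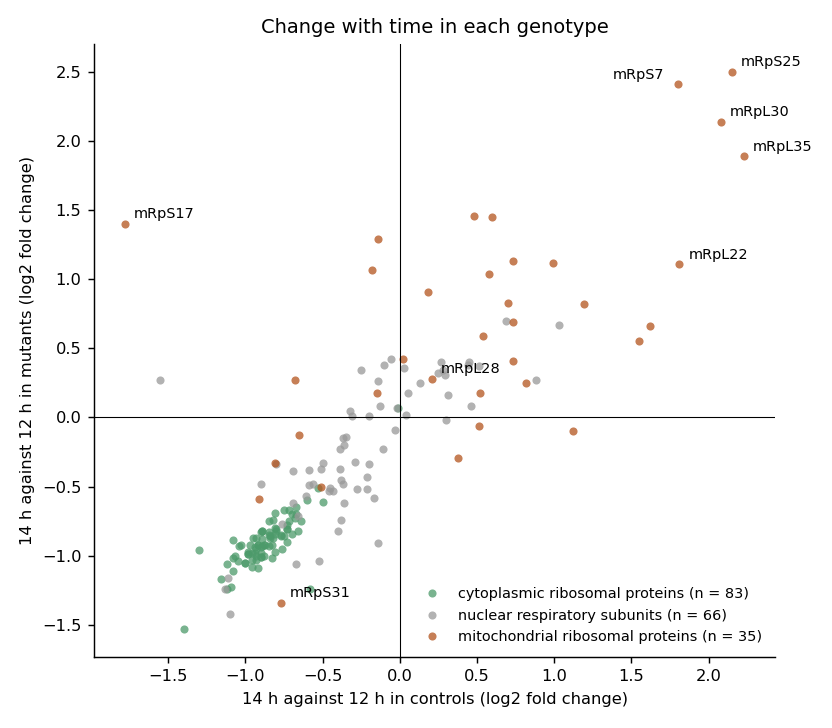
Log2 difference between 14 h and 12 h for the tested members, controls on the horizontal axis and mutants on the vertical axis, beside cytoplasmic ribosomal protein genes and nuclear respiratory subunit genes. Each point is a gene; the 5 members called higher in both genotypes are named at the right, and mRpS17 lies apart, at -1.78 in controls and 1.40 in mutants.

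mRpL28, the highest member by group mean in both 12 h groups, was not called in any contrast. It was at 7.72 ± 1.25 CPM in 12 h controls, 8.47 ± 1.70 in 12 h mutants, 8.95 ± 0.927 in 14 h controls and 10.3 ± 0.364 in 14 h mutants. The log2 differences of mRpL28 were 0.21 and 0.28 between the times and 0.13 and 0.20 between the genotypes, and none was called.

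Transcripts of other cells also moved with time, in both directions. Summed TMM-scaled levels of 8 fat body markers were 153 to 220 CPM in 12 h controls, 141 to 254 in 12 h mutants, 499 to 546 in 14 h controls and 415 to 677 in 14 h mutants; 3 of 7 tested were called higher in controls and 6 of 7 in mutants. Summed levels of 6 hemocyte markers were 4.84 to 6.27 CPM at 12 h and 12.4 to 16 at 14 h in controls, and 5.44 to 8 and 12.4 to 14 in mutants, with 3 and 1 of 3 tested markers called higher. Summed levels of 6 neuron markers were 2.31 to 9.72 CPM at 12 h and 11.4 to 15.4 at 14 h in controls, and 3.29 to 7.84 and 24.8 to 29.5 in mutants, where 3 of 4 tested were called higher. All 3 sums were higher in every 14 h library than in every 12 h library of their genotype. The neuron calls, of elav, brp and Syt1, were all in mutants. Gut marker sums went down, from 85.1 to 171 CPM at 12 h to 31.7 to 35.7 at 14 h in controls. In mutants they were 195 to 449 and 69.8 to 179. Mur89F, Myo31DF and the tracheal marker serp were called lower in both genotypes, Cpr49Ac, Tm2 and up in controls and wg in mutants. Summed epidermal and tracheal, muscle and imaginal markers overlapped between the times. Summed salivary gland markers were 4219 to 15550 CPM at 12 h and 679 to 1410 at 14 h in controls, and 13480 to 18830 and 2531 to 9779 in mutants, with 6 and 8 of 13 tested called lower and 1 called higher in each genotype. Most of that sum was Eig71Ea, with means of 10330 CPM in 12 h controls and 638 in 14 h controls. CrebA was called higher in controls (log2 1.97, edgeR adjusted p 0.000321). Every listed marker had at least 1 read. Of the fat body, hemocyte and neuron lists Yp1, He, eater, Rdl and para had means under 0.5 CPM. The part of these transcripts in the members' time differences was not tested.

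**Figure D4:**
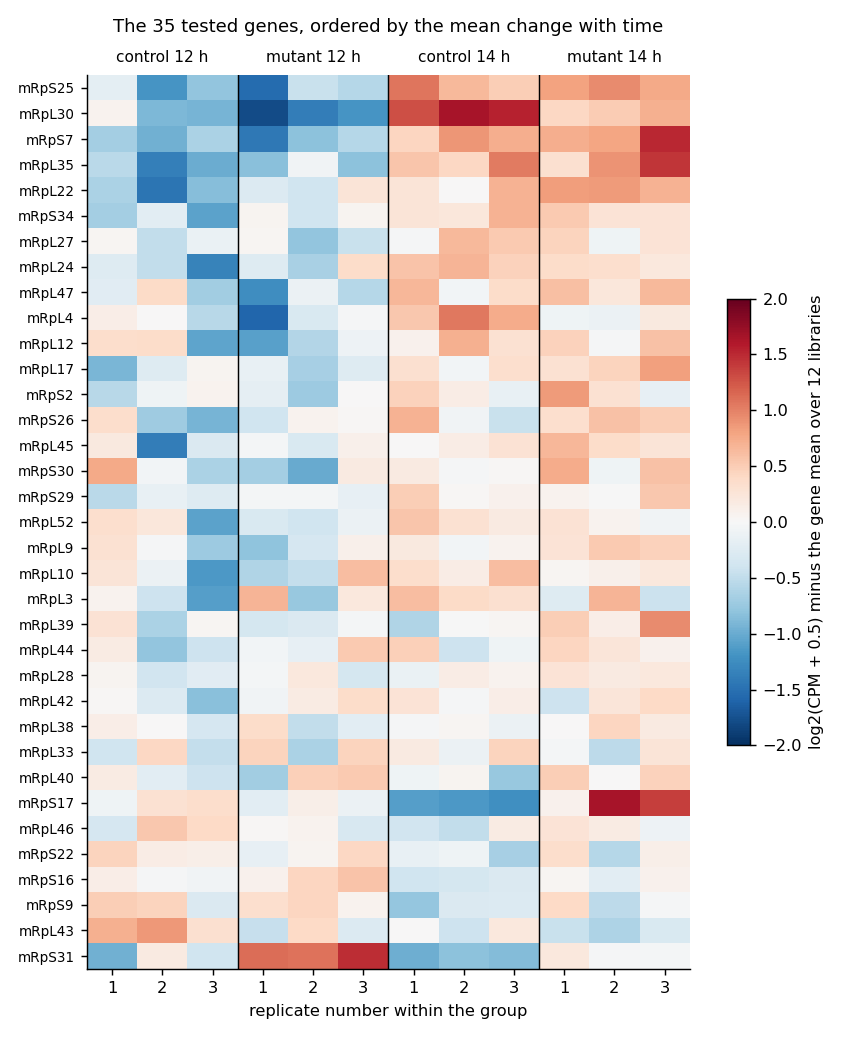
Members by library, shown as the log2 of TMM-scaled CPM plus 0.5 minus the member's mean over 12 libraries, for the 35 tested members as rows and the libraries of each group as columns. Red is above and blue below the mean; the upper rows turn from blue at 12 h to red at 14 h, and mRpS17 and mRpS31 stand out in the lower rows.

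Between genotypes few members were called, and a member that was not called may still differ. At 12 h, 1 of 35 tested members was called higher in mutants (mRpS31) and 1 lower (mRpL30), which is 5.71% beside 15.8% of all tested genes and 8.76% of low-level genes. Genes called higher were 7.94% of all tested and genes called lower 7.87%. At 14 h, mRpS17 and mRpS31 were called higher and mRpL30 lower, which is 8.57% beside 15.2% and 8.68%, with 8.29% of all tested genes called higher and 6.91% lower. The share of members called was thus under the background of all tested genes at both times and under or near that of low-level genes. The groups did not overlap for 2 members with higher and 1 with lower mutant levels at 12 h, and for 6 and 3 at 14 h. Over all tested genes the groups were apart with higher mutant levels in 14% at 12 h and 22.2% at 14 h, and with lower levels in 13.8% and 20.3%. The mutant sum was 1.09 times the control sum at 12 h and 1.07 times at 14 h. Without mRpL30, mRpS17 and mRpS31 it was 1.10 times at 12 h and 1.17 times at 14 h. The 14 h sums were then apart, at 79.9 to 80.2 CPM in controls and 85.8 to 98.4 in mutants, whereas those over all members overlapped. At 14 h, leaving out mRpL30, called lower in mutants, raises the ratio by construction, and leaving out mRpS17 and mRpS31 lowers it. Without the filter, the median effect over 71 members was 0.09 at 12 h (0.00 over all genes) and 0.32 at 14 h (0.07 over all genes). No member other than these 3 was called. The uncalled members nearest to the threshold were mRpL22 at 12 h (log2 1.23, edgeR adjusted p 0.0893) and mRpL39 at 14 h (log2 0.99, adjusted p 0.156).

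mRpL30, the member with the highest mean over all libraries, was lower in mutants at both times while rising with time in both genotypes. It was at 9.47, 4.61 and 4.5 CPM in 12 h controls and 2.24, 3.15 and 3.71 in 12 h mutants. At 14 h it was at 22.8, 29.4 and 27.2 CPM in controls and 12.1, 13.0 and 15.1 in mutants. The genotypes did not overlap at either time, and the first 12 h control was well above its replicates. The log2 difference of mRpL30, mutant against control, was -1.04 at 12 h (SE 0.31, edgeR adjusted p 0.0411) and -0.98 at 14 h (SE 0.27, adjusted p 0.0258). From 12 h to 14 h mRpL30 rose by 2.08 in controls (SE 0.28, edgeR adjusted p 0.000122) and by 2.14 in mutants (SE 0.30, adjusted p 0.000154), and the difference of these rises was 0.06.

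The genotype calls of mRpL30 are near the threshold, whereas its time calls held in each fit that left out 1 library. At 12 h the call ended without any 1 of 9 libraries, which are all but the last 2 of the 12 h controls and the third 12 h mutant (log2 -1.22 to -0.64 and edgeR adjusted p 0.0259 to 0.137 over all 12 such fits). Without the first 12 h control it was -0.64 (adjusted p 0.118). At 14 h the mRpL30 call ended without either of the last 2 of the 14 h controls or any 14 h mutant (-1.08 to -0.90, edgeR adjusted p 0.00187 to 0.105 over the 12 fits).

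Neighbours of mRpL30 also rose with time, and 2 of 3 were called lower in mutants at 14 h. The gene lies at X:4647871-4648646 on the plus strand in 2 exon blocks, and its exons share 55 bases, 7.9% of its exon length, with the opposite-strand gene Torsin (X:4648592-4650032), which encodes an ATPase of the endoplasmic reticulum and nuclear envelope. Torsin was at 19.1, 3.46 and 1.56 CPM in 12 h controls, 1.6, 2.15 and 3.06 in 12 h mutants, 117, 112 and 147 in 14 h controls and 23.3, 21 and 33 in 14 h mutants. Its mutant-control difference at 14 h was -2.28 (SE 0.58, edgeR adjusted p 0.0174), and it rose with time by 3.93 in controls and 3.5 in mutants. The 14 h call of Torsin ended without the third 14 h control or the first or second 14 h mutant (edgeR adjusted p 0.062 to 0.0785). Cbp80, a nuclear cap-binding protein gene nearby, was at 142, 156 and 130 CPM in 14 h controls and 33, 31.4 and 31.8 in 14 h mutants, a log2 difference of -2.15 (edgeR adjusted p 0.0286) that missed the threshold for Cbp80 without any 1 of the 14 h libraries (0.0649 to 0.0984). At 12 h neither Torsin (-1.85, edgeR adjusted p 0.0921) nor Cbp80 (-1.25, adjusted p 0.229) was called between genotypes. HLH4C, whose start lies 457 bases from that of mRpL30 on the other strand, rose by 2.99 and 3.63 with time and was not called between genotypes (edgeR adjusted p 0.386 at 12 h and 0.211 at 14 h). It had 1, 1 and 2 counts in 12 h controls and 0, 1 and 0 in 12 h mutants, under the floor of 3. At 14 h HLH4C had 20, 13 and 15 counts in controls and 14, 4 and 6 in mutants, so the size of its rise is uncertain. Without strand, reads from the 55 shared bases cannot be told apart between mRpL30 and Torsin, and their part in the mRpL30 difference was not tested.

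mRpS31, a protein of the small subunit found only in mitochondria, was higher in mutants. It passed the low-count filter through the mutants, with 6 mutant libraries and 1 control library over the cutoff. The filter itself thus favoured a higher mutant level in this gene. mRpS31 had 7, 18 and 9 counts in 12 h controls and 34, 37 and 44 in 12 h mutants, or 0.896, 2.60 and 1.56 CPM against 5.44, 5.29 and 7.09. At 14 h it was at 0.891, 1.05 and 0.998 CPM in controls and 2.65, 2.20 and 2.15 in mutants. The genotypes did not overlap at either time. The log2 difference of mRpS31 was 1.82 at 12 h (SE 0.35, edgeR adjusted p 0.00443) and 1.24 at 14 h (SE 0.36, adjusted p 0.0359). It fell by 1.34 from 12 h to 14 h in mutants (SE 0.33, edgeR adjusted p 0.00535), and the control difference of -0.77 was not called (adjusted p 0.128).

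The 12 h call of mRpS31 held whichever library was left out (edgeR adjusted p 0.00246 to 0.0181) and missed the threshold in a fit of the 2 compared groups alone (0.058). Its 14 h call ended in 8 of 12 such fits, without the third 12 h control, the second 12 h mutant or any 14 h library (edgeR adjusted p 0.0126 to 0.126 over all 12). mRpS31 lies at 3L:16005193-16006599 on the plus strand, and the gene hzg (3L:15992669-16004736) starts 457 bases away on the other strand. hzg was higher in mutants too, at 88.7, 117 and 127 CPM in 12 h controls and 337, 326 and 338 in 12 h mutants. At 14 h hzg was at 82.1, 87.6 and 92.0 CPM in controls and 125, 122 and 133 in mutants. Its log2 difference was 1.59 at 12 h (SE 0.15, edgeR adjusted p 3.27e-05) and 0.54 at 14 h (adjusted p 0.0306). The 14 h call of hzg ended in each fit without a 14 h library and in 4 without a 12 h library (edgeR adjusted p 0.051 to 0.13). Both genes of the pair had higher levels in mutant than in control libraries at both times. The gene mib1, which shares 48 exon bases with mRpS31 on the opposite strand, was not called between genotypes (-0.10 at 12 h and 0.14 at 14 h, edgeR adjusted p 0.777 and 0.712).

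mRpS17, whose bacterial counterpart binds ribosomal RNA, was the one member whose genotype effect was called as different between the times. In that contrast 2.72% of all tested genes were called, 1.75% higher and 0.963% lower, against 1 of 35 members. It was at 2.30, 3.17 and 3.29 CPM in 12 h controls and 2.08, 2.72 and 2.26 in 12 h mutants. At 14 h it was at 0.891, 0.836 and 0.776 CPM in controls, which is 9, 8 and 7 counts, and at 2.65, 8.78 and 7.29 in mutants, which is 26, 80 and 78 counts. The genotypes overlapped at 12 h and were apart at 14 h, where the first mutant was well under the other two. The log2 difference of mRpS17 was -0.30 at 12 h (SE 0.41, edgeR adjusted p 0.668) and 2.88 at 14 h (SE 0.42, adjusted p 0.000575). With time mRpS17 fell by 1.78 in controls (SE 0.44, edgeR adjusted p 0.00617) and rose by 1.40 in mutants (SE 0.39, adjusted p 0.0114), and the difference of the genotype effects was 3.18 (SE 0.59, adjusted p 0.0119).

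The 14 h difference of mRpS17 was called whichever library was left out (2.56 to 3.24), and so was the difference between the times (2.86 to 3.54, edgeR adjusted p 0.00118 to 0.0452). The rise of mRpS17 in mutants was not called without the second 14 h mutant (1.07, edgeR adjusted p 0.0613). With both libraries that stood out in gut markers left out, that rise was 0.99 (edgeR adjusted p 0.139), and the difference between the times was 2.77 and missed the threshold (edgeR adjusted p 0.0845; 0.000385 to 0.0845 over the alternatives that kept it among the tested genes and left out no single library). mRpS17 lies at 2R:24173665-24174441 on the minus strand and shares no exon with another gene. Its nearest neighbour CG3328, 5 bases away, had no such pattern, with a 14 h genotype difference of -0.06 and rises with time of 0.98 and 1.03. Nop60B, a pseudouridine synthase gene 436 bases away, was not called at 14 h (0.82, edgeR adjusted p 0.271).

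**Figure D5:**
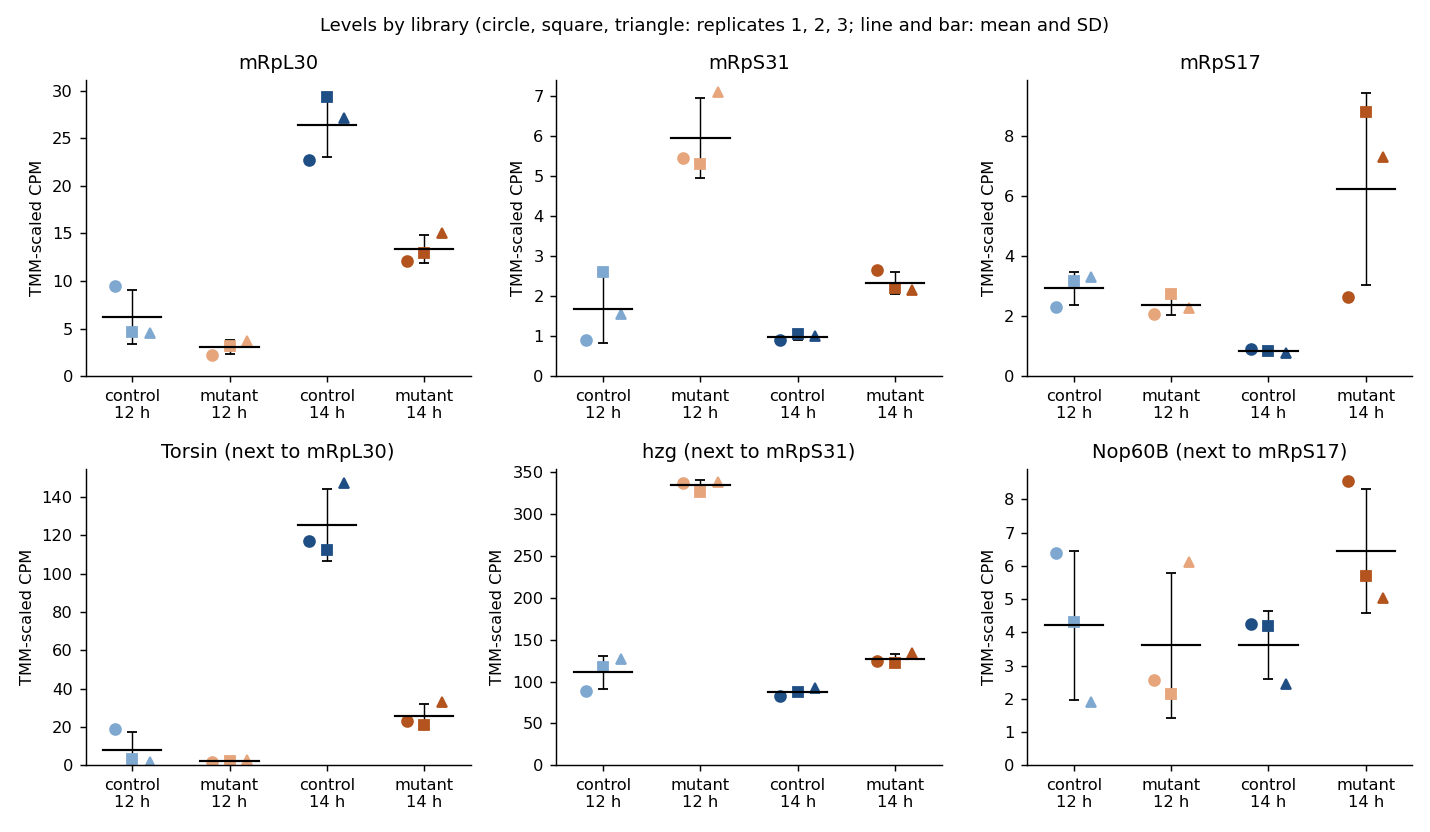
Levels of mRpL30, mRpS31 and mRpS17 (upper panels) and of a neighbouring gene of each, Torsin, hzg and Nop60B (lower panels), in TMM-scaled CPM by group; points are libraries, and the line and bar give the mean and SD of 3. mRpL30 is lower and mRpS31 higher in mutants at both times, and mRpS17 is higher in mutants at 14 h, at 2.65 to 8.78 against 0.776 to 0.891.

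The small subunit took a larger share of member counts in mutants, and the shares overlapped without mRpL30, mRpS17 and mRpS31. The small subunit took 30.6%, 35.3% and 33.3% of member counts in 12 h controls and 36.4%, 37.5% and 37.2% in 12 h mutants. At 14 h it took 25.8%, 23.3% and 22.5% in controls and 32.9%, 34.3% and 34.4% in mutants. The genotypes were apart at both times. Without mRpL30, mRpS17 and mRpS31 the shares were 31.5%, 31.7% and 29.3% in 12 h controls and 29.1%, 31.0% and 31.3% in 12 h mutants, which overlap. At 14 h they were then 31.5%, 30.1% and 28.4% in controls and 33.3%, 31.1% and 33.4% in mutants, which also overlap. All of these genes were called between the 14 h groups, so leaving them out narrows this gap by construction. The summed small-subunit level at 14 h was 25.8 ± 1.26 CPM in controls and 39.2 ± 2.33 in mutants, a ratio of 1.52. Without mRpS17 and mRpS31, which were called between these groups, so that leaving them out narrows the gap by construction, it was 22.7 to 25.2 against 26.7 to 32.8 CPM, still apart at a ratio of 1.28. The large-subunit level was 82.5 ± 4.19 and 76.5 ± 3.95 CPM, a ratio of 0.93 that became 1.13 without mRpL30. That shift follows by construction, since mRpL30 was called lower in mutants. In the fit without the filter the median 14 h effect was 0.46 over 25 small-subunit members and 0.24 over 46 large-subunit members, given as a description.

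Markers of other cells moved with genotype as well. Summed gut markers were 85.1 to 171 CPM in 12 h controls and 195 to 449 in 12 h mutants, and 31.7 to 35.7 against 69.8 to 179 at 14 h, with 1 of 5 tested markers called higher in mutants at each time. Summed epidermal and tracheal markers were 148 to 374 against 334 to 656 CPM at 12 h and 154 to 191 against 289 to 406 at 14 h, with 1 and 2 of 8 called higher. Summed imaginal markers, 5 genes matched of 7 names, were 9.86 to 17.9 against 21.2 to 25.9 CPM at 12 h and 8.09 to 10.6 against 20.7 to 35 at 14 h. Of these markers 1 of 3 tested was called higher at each time. Most of the imaginal sum was ptc, with means of 10.9 against 15.9 CPM at 12 h and 6.87 against 23.3 at 14 h. Means of en at 12 h and of Antp at 14 h were lower in mutants. Summed neuron markers at 14 h were 11.4 to 15.4 CPM in controls and 24.8 to 29.5 in mutants, with 1 of 4 called. Of these lists Jon65Aiv, Vha100-4, alphaTry, betaTry and lab (gut) and Antp and en (imaginal) had means under 0.5 CPM. At 14 h the fat body marker Fbp1 was called higher (log2 0.80, edgeR adjusted p 0.0423) and the hemocyte marker Pxn lower (-1.54, adjusted p 0.00833) in mutants. Summed muscle markers overlapped between genotypes at both times. Salivary gland markers differed too, with sums of 4219 to 15550 against 13480 to 18830 CPM at 12 h. At 14 h these were 679 to 1410 against 2531 to 9779. Those called higher in mutants included Sgs1, Sgs8, PH4alphaSG1 and fkh at 12 h and Eig71Ed, Sgs8, Eig71Ea and Sgs5 at 14 h. Lower in mutants were the means of sage at both times, sens at 12 h and CrebA at 14 h. The part of all these markers in the members' genotype differences was not tested.

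The rest of the mitochondrial expression system was followed in lists of nuclear genes. Of 13 translation factors 8 were tested, and 2 rose with time in controls and 1 in mutants. mEFG1, mitochondrial elongation factor G, went from 9.77 ± 2.41 to 33.6 ± 3.69 CPM in controls, a log2 rise of 1.77 (SE 0.30, edgeR adjusted p 0.000583). In mutants mEFG1 was at 14.7 ± 7.70 CPM at 12 h and 14.3 ± 0.279 at 14 h, where it was 1.23 lower than in controls on the log2 scale (log2 -1.23, SE 0.29, edgeR adjusted p 0.0127), a call that ended without the second 14 h control (0.0545). Of 16 mitochondrial aminoacyl-tRNA synthetases 7 were tested, and in controls CysRS-m was called higher and PheRS-m and AlaRS-m lower. With library size alone the falls of PheRS-m (-0.14, edgeR adjusted p 0.632) and AlaRS-m (-0.09, adjusted p 0.713) were not called. Leaving out 1 library ended the call of CysRS-m in 4 of 12 fits, of PheRS-m in 5 and of AlaRS-m in 8 (edgeR adjusted p up to 0.118, 0.135 and 0.162). Of 20 genes for mitochondrial DNA maintenance and transcription 13 were tested; mtTFB2, a mitochondrial transcription factor, rose in controls by 0.88 (edgeR adjusted p 0.00303) and Suv3 was called lower in both genotypes. Calls of Suv3 ended in 3 of 12 fits without 1 library in controls and 4 of 12 in mutants (edgeR adjusted p up to 0.137 and 0.122), and with library size alone (0.134 and 0.133). mTerf5 was called higher in mutants, a call that ended in 10 of 12 such fits (edgeR adjusted p up to 0.167). Letm1 was 1 of 2 tested genes in the list for ribosome assembly and rRNA modification. Its level, far above that of any member, was 7038 CPM at 12 h and 2779 at 14 h in controls, and 6538 and 2626 in mutants. The log2 differences of Letm1 with time were -1.34 and -1.32 (edgeR adjusted p 0.000367 and 0.000397). Of 3 mitoribosomal genes under other symbols (tko, bonsai and CG30100) 1 was tested, and it was not called.

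Transcripts of cytoplasmic ribosomal proteins, and in part those of mitochondrial DNA, fell with time. Of 15 tested genes of mitochondrial DNA, 6 fell in controls and 8 in mutants, with median effects of -0.99 and -0.97, or -0.48 and -0.46 with library size alone. Of 83 tested cytoplasmic ribosomal protein genes 79 fell in each genotype, with medians of -0.88 and -0.92, or 27 and 41 genes with medians of -0.34 and -0.39 with library size alone. Among 66 tested nuclear genes for oxidative phosphorylation, 3 rose and 9 fell in controls and 1 rose and 14 fell in mutants, with medians of -0.30 and -0.27. With library size alone these respiratory medians were 0.22 and 0.23, so their direction depends on the scaling.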

How the data were processed

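Total RNA of salivary glands was prepared with a NucleoSpin kit and sequenced from standard Illumina libraries, per the labels. The authors deposited whole-number read counts per gene. Per the submitters' processing notes, featureCounts 1.6.3, STAR 2.7.6a, DESeq2 1.30.1 and cutadapt 1.16 were used with BDGP6; strand setting, treatment of multi-mapping reads and annotation release are not given in the sources used here. Of 17807 identifiers 17710 matched a name; the symbol mRpS5 was not analysed here. Genes were filtered with filterByExpr (minimum count 10), scaled by TMM and fitted with edgeR 4.0.16 (R 4.3.3) on all 12 libraries as 4 group means, leaving 8 residual degrees of freedom; SE is the log2 difference over the square root of F. CPM are counts over TMM-scaled library sizes unless called unscaled. The fit was tested on simulated counts of the tested genes. There it called 18.2% of 2-fold genotype changes at 12 h and 20.9% at 14 h, so most changes of that size were missed. Alternatives were DESeq2 1.42.0, other scalings and filters, a replicate block and leaving out each library. Members and lists were chosen with earlier results of these data known. Members were named in every library when called and at least 5 CPM in the higher group; other named members were chosen after their values were seen. Exon positions come from the BDGP6 annotation. Sequences were not used here.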

Additional observations from a re-analysis of the deposited data

Results flagged for a closer look

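In 4 genes named here the effect of genotype at 14 h differed from that at 12 h in an edgeR test of the difference itself. For mRpS17 the difference was 3.18 (SE 0.59, edgeR adjusted p 0.0119), from a mutant-control log2 difference of -0.30 at 12 h to 2.88 at 14 h. For mEFG1, mitochondrial elongation factor G, it was -1.82 (SE 0.42, edgeR adjusted p 0.0394), a call that ended without the second or the third 12 h control or any 14 h library (0.069 to 0.119). For hzg, the neighbour of mRpS31, it was -1.05 (SE 0.21, edgeR adjusted p 0.0193), a call that ended without the second 12 h control, any 12 h mutant, any 14 h control or the first or second 14 h mutant (0.0532 to 0.0739). For ox, a subunit of respiratory complex III, it was 1.82 (SE 0.40, edgeR adjusted p 0.0312), with 10.8 ± 2.16 CPM in 12 h controls, 4.09 ± 0.696 in 12 h mutants, 3.65 ± 0.390 in 14 h controls and 4.91 ± 1.82 in 14 h mutants, where the third library (7.01) stood above the others (3.87 and 3.84). The call for ox ended without the second or the third 12 h control, any 12 h mutant, any 14 h control or the third 14 h mutant (edgeR adjusted p 0.0559 to 0.0939).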

How the results depend on the processing

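Depth is a limit: the filter on low counts left out 37 of 72 members, and 44 had a mean under 1 CPM. No called value of a named gene changed sign under the alternatives run, whereas the summed level and median of nuclear oxidative phosphorylation genes over time did with the scaling (medians -0.30 and -0.27, or 0.22 and 0.23 with library size alone). Members called lower in mutants at 12 h (1) were 0 with library size alone, with the compared groups only, with a threshold of 0.01 and without both mutant libraries high in gut markers (left out together as an alternative that was chosen after seeing the data), and 0 to 1 without single libraries. Members called higher at 12 h (1) were 0 with the 5 CPM filter and with the compared groups only, and 1 without any single library. At 14 h the 2 called higher were 1 without the filter, at 0.01 and without those libraries, 0 at 5 CPM, and 1 to 2 without single libraries; the 1 called lower was 2 with the compared groups only, 0 at 0.01 and without those libraries, and 0 to 1 without single libraries. With time in controls the 7 called higher were 14 with library size alone, 1 at 5 CPM, 4 at 0.01 and 6 to 8 without single libraries; the 1 called lower was 0 at 5 CPM and 1 to 2 without single libraries. In mutants the 8 called higher were 17 with library size alone, 5 without the filter, 1 at 5 CPM, 4 at 0.01, 4 without those libraries and 5 to 8 without single libraries; the 1 called lower was 0 with library size alone and at 5 CPM. The 1 difference between times was 0 at 5 CPM, at 0.01 and without those libraries. The cause of these changes was not tested, and at 5 CPM fewer members were tested. Without the filter 9.61% of 13878 genes were called higher with time in controls and 10.9% in mutants. Between genotypes 4.82% were called higher in mutants at 12 h and 4.71% at 14 h. Library size alone also raised the median time effect over all tested genes. For the other alternatives the shares of all genes are not given here, so the counts are not read as a result about the members.

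Same-numbered libraries did not pair: their deviations from group means correlated at -0.257 to 0.238 in 18 pairs, with 3 over 0.1. With the replicate block the member called lower at 12 h was lost (0) and 1 rather than 2 was called higher at 14 h.

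The members' unscaled share was 58.3 and 62.6 CPM in 12 h controls and mutants and 130 and 138 at 14 h. Without the 20 most abundant genes it was 79.1 in 12 h controls, 83.1 in 12 h mutants, and 181 and 193 at 14 h. The TMM-scaled values were 68.3 and 74.4 at 12 h and 108 and 116 at 14 h. Without single libraries the unscaled share ran from 47.1 to 67.7, 53.9 to 67.7, 128 to 132 and 134 to 142.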
